A study of Mus musculus with 6 samples.

Results

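Genes of the cerebellin, delta receptor and MDGA system were followed in the neonatal mouse cerebellum with and without the chromatin-associated factor Tox3. The genes were *Cbln1*, *Cbln2*, *Cbln3* and *Cbln4*, which encode the secreted cerebellins, *C1ql1*, which encodes a related secreted C1q-like protein, *Grid1*, which encodes the delta receptor GluD1, and *Mdga1* and *Mdga2*, which encode membrane-anchored proteins that bind neuroligins. These were taken by gene symbol, with earlier results of these data known, and are 8 of the 54532 genes in the count table. All 8 passed the filter on low counts.

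Synapse organizers are secreted or membrane proteins that join the presynaptic and the postsynaptic side. In the cerebellum, Cbln1 is released by granule neurons and bridges presynaptic neurexins to a postsynaptic receptor on Purkinje cells, which holds the synapse between parallel fibres and Purkinje cells together. C1ql1 is best known as the ligand that climbing fibres, the axons of the inferior olive, present to the receptor Bai3 (*Adgrb3*) on Purkinje cells. MDGA proteins act in the other direction, since they occupy the face of neuroligins that neurexins would bind.

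Bulk mRNA was sequenced from cerebella at postnatal day 1 (P1). The 3 control libraries came from Tox3f/f littermates, which carry the floxed *Tox3* allele and no Cre. The 3 mutant libraries came from Nestin-cre;Tox3f/f animals, in which a transgene under Nestin control expresses Cre in the nervous system and deletes the floxed segment there. The floxed allele was obtained from *Tox3*tm1a(KOMP)Mbp by crossing to an FLP line, and both groups carry it on both chromosomes. Every mutant and no control carried the Cre transgene, and effects of the transgene cannot be told apart from those of the deletion. Animals of both sexes were used, and Y-chromosome genes were detected in control 1, mutant 1 and mutant 3. The sources used here do not say whether each library was 1 animal, so p-values measure the spread between these libraries.

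Counts on genes totalled 15391854 to 17178478 per library, and 3 counts corresponded to 0.173 to 0.196 CPM (counts brought to a common depth with TMM normalization). Differences were tested on the counts of 17505 genes with edgeR's quasi-likelihood test, and a gene was called lower or higher at a Benjamini-Hochberg adjusted p under 0.01 together with a change beyond 0.5 in log2 (mutant minus control). Of these genes, 6.66% were called, 3.63% lower and 3.03% higher, and the median log2 fold change was -0.01. At an unadjusted p under 0.05, 37.1% of them passed. The count of the targeted gene *Tox3* did not separate the groups. It was 63.9 ± 0.76 CPM in the control and 59.3 ± 3.95 CPM in the mutant libraries (SD, n = 3), with overlapping values and an adjusted p of 0.252 (edgeR), so a count over the whole gene did not check the labels, and directions here are those between the libraries labelled control and mutant. *Atoh1*, which specifies granule neuron progenitors, fell from 31.8 ± 0.873 to 0.362 ± 0.186 CPM.

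Cell type markers differed between the groups. Of the granule progenitor list, 10 of 10 genes were called lower, and its summed level went from 1821 to 1946 CPM in the control libraries to 786 to 844 CPM in the mutant libraries. *Barhl1*, a transcription factor of the granule lineage, fell by 2.59 on the log2 scale, and the cyclin gene *Ccnd2* by 0.84. Of the postmitotic granule neuron list, 6 genes were called lower and 1 (*Calb2*) higher among 11 tested of 12 (*Gabra6* was not tested), with summed levels of 2110 to 2149 against 1181 to 1310 CPM. Lists of other cerebellar cells leaned the other way: 7 of 10 Purkinje cell genes were called higher (1873 to 2016 against 2626 to 3132 CPM), as were 3 of 6 astroglial genes (2716 to 2815 against 3713 to 4025 CPM), 2 of 5 GABAergic interneuron genes (257 to 262 against 374 to 386 CPM) and 5 of 7 oligodendrocyte lineage genes (502 to 538 against 658 to 704 CPM). In the oligodendrocyte lineage list *Pdgfra* fell, from 194 ± 11.3 to 142 ± 3.24 CPM. Its log2 fold change of -0.45 passed on p (0.000307 adjusted, edgeR) and not on fold. Of the glutamatergic nuclear neuron list 1 of 5 genes was called, higher, with summed levels of 123 to 130 against 113 to 117 CPM, and of the unipolar brush cell list 0 of 2 (1 lower at an unadjusted p under 0.05), with 82.1 to 86.1 against 65.3 to 69 CPM. In the nuclear neuron list *Slc17a6* fell by 0.49 in log2 units, which passed on p (0.000459 adjusted, edgeR) and not on fold. Among cells outside the neural lineage, 2 of 5 meningeal genes were called higher (354 to 381 against 527 to 626 CPM), 1 of 4 microglial genes was called higher (65.5 to 71.5 against 83.7 to 97.2 CPM), and no gene of the endothelial list (234 to 245 against 225 to 237 CPM) or the erythrocyte list (92.6 to 100 against 76.1 to 112 CPM) was called or passed an unadjusted p under 0.05. The choroid plexus list was uneven between libraries, at 76.3 to 143 CPM in the control and 12.3 to 752 CPM in the mutant libraries, and none of its genes was called (2 of 5 higher at an unadjusted p under 0.05). Posterior hindbrain Hox genes summed to at most 0.981 CPM in any library and none passed the filter; *Hoxb2*, *Hoxb3*, *Hoxb4*, *Hoxb5* and *Hoxc4* had at most 3 counts in every library. Midbrain genes summed to 2.44 to 3.97 against 3.32 to 9.34 CPM, with *Pitx3* at no more than 3 counts in every library. Of its 2 genes tested 0 were called by edgeR, 1 was higher at an unadjusted p under 0.05 and DESeq2 called 1 higher. *Lmx1b*, a transcription factor gene of that list, was at 0.651, 0.846 and 0.642 CPM in control 1 to 3 and 2.54, 0.782 and 4.55 CPM in mutant 1 to 3 (log2 fold change 1.87, adjusted p = 0.0345, edgeR). *Th*, the dopamine synthesis gene, had 4, 6 and 4 counts in control 1 to 3 and 33, 2 and 33 in mutant 1 to 3, so mutant 1 and mutant 3 held more of both than the other 4 libraries.

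Among the 8 organizer genes, *Cbln1*, *C1ql1* and *Mdga1* were called lower, *Cbln2* was called higher, and *Cbln3*, *Cbln4*, *Grid1* and *Mdga2* were not called. With 3 lower and 1 higher of 8, the members stood beside shares of 3.63% and 3.03% of all genes tested. Their median log2 fold change was -0.05, with 4 values above zero and 4 below. The groups did not overlap for *Cbln1*, *C1ql1*, *Mdga1*, *Cbln2* and *Grid1*, where 40.5% of all genes tested had groups that did not overlap, 20.1% with the mutant libraries lower and 20.4% with them higher. In bulk tissue, fewer cells of a type and less RNA per cell cannot be told apart, and this holds for each value that follows.

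**Figure D1:**
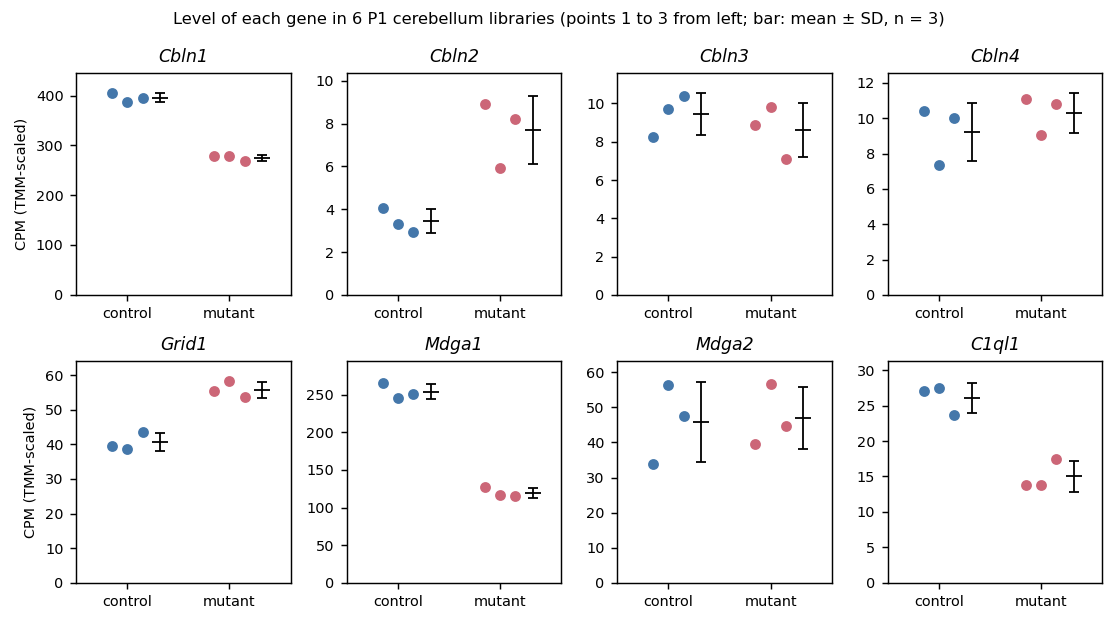
Level of the 8 organizer genes in CPM (vertical axis, from 0, TMM-scaled) in the 3 control (blue) and 3 mutant (red) libraries. Points are libraries 1 to 3 from left to right, and the black mark and bar beside them are the mean and SD (n = 3). *Cbln1*, *Mdga1* and *C1ql1* lie lower in every mutant library, *Cbln2* and *Grid1* lie higher in every mutant library, and the other genes overlap.

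Among the secreted ligands, *Cbln1* was by far the most abundant. *Cbln1* (ENSMUSG00000031654) is a gene of the minus strand (GRCm38, chr8:87468405-87472609). It was measured at 405, 388 and 396 CPM in control 1, 2 and 3 and at 279, 278 and 269 CPM in mutant 1, 2 and 3. All mutant libraries thus lay below all control libraries, and libraries of a group were close to each other. The level fell by 30.5% in the means, from 396 ± 8.64 to 275 ± 5.84 CPM (SD, n = 3). On the log2 scale this was -0.52 with a standard error of 0.04 and an adjusted p of 4.21e-05 (edgeR). The 95% interval, -0.62 to -0.43, includes the threshold of 0.5 in size, so the call stood close to the limit on fold while the difference from zero ranked 142 by p among all genes tested.

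*Cbln2* (ENSMUSG00000024647, chr18:86711110-86718283, plus strand) encodes a cerebellin that also bridges neurexins to delta receptors. It was rare, with 4.04, 3.32 and 2.95 CPM in control 1 to 3 and 8.94, 5.93 and 8.22 CPM in mutant 1 to 3, or 46 to 62 reads against 91 to 155 reads. The highest control library lay below the lowest mutant library. Mean levels were 3.44 ± 0.55 and 7.7 ± 1.57 CPM (SD, n = 3), 2.24-fold higher in the mutant libraries. This was 1.16 in log2 units (standard error 0.2), with an adjusted p of 0.0026 by edgeR. The call depended on the libraries used: without control 2, control 3, mutant 1 or mutant 3 the adjusted p lay between 0.0127 and 0.0143, with log2 fold changes between 1.04 and 1.33 over all 6 fits that each leave out 1 library. Within each group the library with the most *Cbln2* held Y-chromosome genes, and with their level as a covariate the log2 fold change was 1.02 (adjusted p = 0.00056, edgeR). Meningeal markers summed to 381, 354 and 356 CPM in control 1 to 3 and to 626, 533 and 527 CPM in mutant 1 to 3. The collagen genes *Col1a1* (0.85) and *Col1a2* (0.77) were called higher in that list, while *Dcn* and *Lum* (the latter named after its values were seen) were at -0.05 and -0.16 in log2 units and were not called. Midbrain markers summed to 3.97, 3.39 and 2.44 CPM in control 1 to 3 and to 6.86, 3.32 and 9.34 CPM in mutant 1 to 3. Choroid plexus markers summed to 143, 110 and 76.3 CPM and to 197, 12.3 and 752 CPM. Both lists, like *Cbln2*, were higher in mutant 1 and mutant 3 than in mutant 2. In mutant 2 neither list exceeded its highest control library, and *Cbln2* was at 5.93 CPM, on 91 reads. The part of these 3 cell lists in the *Cbln2* values was not tested.

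*Cbln3* (ENSMUSG00000040380, chr14:55878913-55884392, minus strand) encodes a cerebellin of granule neurons that is secreted only together with Cbln1. Its level was 8.27, 9.7 and 10.4 CPM in control 1 to 3 and 8.88, 9.84 and 7.1 CPM in mutant 1 to 3. The groups overlapped, with a log2 fold change of -0.14 (95% interval -0.48 to 0.21, adjusted p = 0.561, edgeR). The estimate for *Cbln1*, -0.52, lay just outside that interval, but the 95% interval of *Cbln1*, -0.62 to -0.43, overlapped it.

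*Cbln4* (ENSMUSG00000067578, chr2:172036233-172043466, minus strand) encodes a secreted cerebellin that binds neurexins. It was measured at 10.4, 7.36 and 10 CPM in control 1 to 3 and at 11.1, 9.06 and 10.8 CPM in mutant 1 to 3. The second library of each group was the lowest, and the groups overlapped. The log2 fold change was 0.16, with a 95% interval of -0.18 to 0.51 and an adjusted p of 0.484 (edgeR). A change of the size of the one in *Cbln2* lay outside that interval.

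*C1ql1* (ENSMUSG00000045532, chr11:102939264-102946688, minus strand) was measured at 27.1, 27.5 and 23.7 CPM in control 1 to 3 and at 13.8, 13.8 and 17.5 CPM in mutant 1 to 3. Every mutant library lay below every control library. The mean fell from 26.1 ± 2.08 to 15 ± 2.16 CPM (SD, n = 3), 1.74-fold lower. In log2 units the fall was -0.8 with a standard error of 0.11 (adjusted p = 0.000935, edgeR). No marker list was made for the inferior olive, and the source of the *C1ql1* reads was not tested. The other C1q-like ligands were rare. *C1ql3* was called higher, from 4.49, 5.01 and 5.71 to 7.56, 8.02 and 8.59 CPM (log2 fold change 0.67, adjusted p = 0.00951, edgeR), but lost its call in 11 of 16 alternative fits, among them every fit that left out 1 library. *C1ql2* and *C1ql4* lay between 0.706 and 4.04 CPM and were not called.

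*Grid1* (ENSMUSG00000041078, chr14:34820108-35583379, plus strand) encodes GluD1, a receptor of the delta family that binds cerebellins. Its level was 39.6, 38.7 and 43.5 CPM in control 1 to 3 and 55.4, 58.3 and 53.7 CPM in mutant 1 to 3. The groups were separate, with means of 40.6 ± 2.57 and 55.8 ± 2.34 CPM (SD, n = 3). The difference from zero passed the threshold on p (adjusted p = 0.00161, edgeR), but the log2 fold change of 0.46 (standard error 0.07) fell short of 0.5, so *Grid1* was not called. Without control 3, its highest control library, the log2 fold change was 0.51 with an adjusted p of 0.00343 and the gene was called. Purkinje cell markers stood 0.59 above zero in the median (log2), with *Car8* at 0.63, *Calb1* at 0.68 and *Itpr1* at 0.5. Other list medians were 0.51 for astroglia, 0.69 for the oligodendrocyte lineage, 0.46 for GABAergic interneurons and 0.22 for glutamatergic nuclear neurons. The medians were -1.24 for granule progenitors, -0.6 for postmitotic granule neurons and -0.11 for unipolar brush cells. The part of any of these lists in the values of *Grid1* was not tested.

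*Mdga1* (ENSMUSG00000043557, chr17:29827956-29970087, minus strand) encodes a GPI-anchored protein that binds neuroligin-2 and blocks its contact with neurexins. It was measured at 265, 246 and 251 CPM in control 1 to 3 and at 127, 116 and 115 CPM in mutant 1 to 3. The highest mutant library lay well below the lowest control library. The spread within a group was an SD of 10 CPM in the control and 6.74 CPM in the mutant libraries (n = 3). The mean fell 2.13-fold, or by 1.09 in log2 units, with a standard error of 0.05 and a 95% interval of -1.22 to -0.97 (adjusted p = 2.57e-06, edgeR). It ranked 19 by p among the 17505 genes tested.

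*Mdga2* (ENSMUSG00000034912, chr12:66466060-67222549, minus strand), the paralog, binds neuroligins as well. Its level was 33.8, 56.4 and 47.5 CPM in control 1 to 3 and 39.5, 56.7 and 44.7 CPM in mutant 1 to 3. The libraries of a group differed more from each other than the groups did. The log2 fold change was 0.03 with a 95% interval of -0.37 to 0.43 (adjusted p = 0.918, edgeR), and it turned to -0.15 without control 1 and to -0.12 without mutant 2. In both groups the library highest in *Mdga2* was replicate 2, where Y-chromosome genes were not detected. With the Y-chromosome gene level as a covariate the log2 fold change was 0.2 (adjusted p = 0.0824, edgeR). *Ptprd* and *Ntrk3*, organizer genes of other families chosen after their values were seen, were likewise highest in replicate 2 of both groups. The source of this spread between libraries was not tested.

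Granule cell lists moved with the 3 members that fell, and the members' levels relative to these lists were computed after the values had been seen, as a description. *Cbln1* amounted to 22.2, 19.9 and 21.5% of the summed CPM of the granule progenitor list in control 1 to 3 and to 35.5, 33 and 34% in mutant 1 to 3. *Cbln1* thus fell less than that list did. Relative to the postmitotic granule neuron list *Cbln1* went from 18.6 ± 0.517% to 22.2 ± 0.84% (SD, n = 3). *Mdga1* amounted to 13.6 ± 0.962% and 14.8 ± 1.22% of the progenitor list, with overlapping libraries, and to 11.9 ± 0.557% and 9.62 ± 0.734% of the postmitotic list. *C1ql1* amounted to 1.4 ± 0.1% and 1.87 ± 0.309% of the progenitor list and to 1.23 ± 0.106% and 1.22 ± 0.232% of the postmitotic list. The part of granule cell number in these values was not tested.

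Levels of different genes were compared per gene length, as FPKM (reads scaled by gene length and library size). In the control libraries *Cbln1* was highest at 129 ± 2.74 FPKM (SD, n = 3), followed by *Mdga1* at 26.8 ± 1.04, *C1ql1* at 17.5 ± 1.4 and *Grid1* at 6.75 ± 0.428 FPKM, and each of these was separate from its neighbour in every library. Lower in the order, *Mdga2* at 2.48 ± 0.618 FPKM overlapped both *Cbln4* at 3.16 ± 0.559 and *Cbln3* at 1.93 ± 0.223 FPKM, which were separate from each other, while *Cbln2* at 1.18 ± 0.188 FPKM was lowest in all 3 libraries. In the mutant libraries *Cbln1* was again highest at 90.2 ± 1.79 FPKM and *Mdga1* came next at 12.6 ± 0.751 FPKM. *C1ql1* at 10.1 ± 1.48 FPKM now overlapped *Grid1* at 9.31 ± 0.346 FPKM. *Cbln2* at 2.65 ± 0.553 FPKM overlapped *Mdga2* at 2.55 ± 0.464 FPKM, with *Cbln4* above them at 3.55 ± 0.402 and *Cbln3* lowest at 1.76 ± 0.278 FPKM. The step from *Cbln1* to *Mdga1* was 4.82-fold in the control and 7.15-fold in the mutant libraries.

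**Figure D2:**
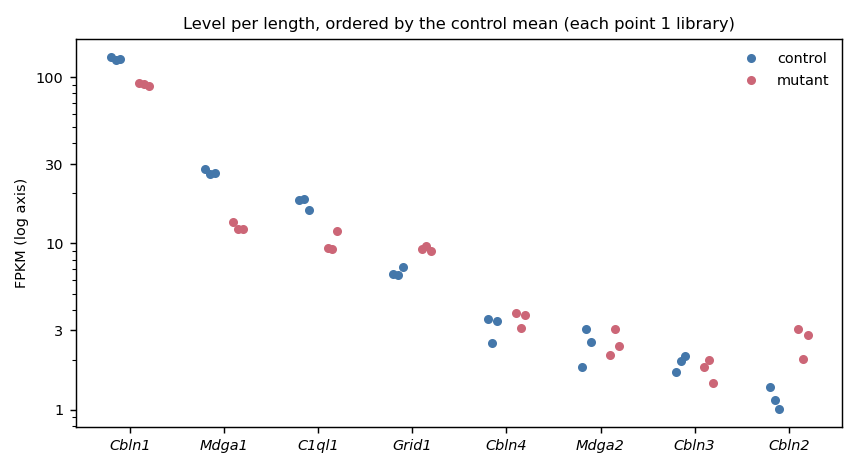
Level per gene length (FPKM, log axis) of the 8 organizer genes, ordered by the control mean, with each point 1 library of the control (blue) or mutant (red) group. *Cbln1* lies above all others in both groups, and *Cbln2*, the lowest gene in the control libraries, lies above *Cbln3* in all 3 mutant libraries.

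The make-up of each family was taken from the same FPKM values, a description chosen after seeing the data. *Cbln1* made up 95.4 ± 0.31% of the summed cerebellin FPKM in the control and 91.9 ± 0.738% in the mutant libraries (SD, n = 3), while the sum itself went from 136 ± 3.23 to 98.2 ± 2.13 FPKM. *Cbln2* made up 0.867 ± 0.126% and 2.7 ± 0.544%. The sum of both MDGA genes went from 29.3 ± 0.44 to 15.2 ± 0.524 FPKM, and the share of *Mdga1* in it from 91.5 ± 2.22% to 83.2 ± 3.14%. Among the 4 C1q-like genes, *C1ql1* made up 81.1 ± 3.13% of the FPKM in the control and 62.3 ± 3.75% in the mutant libraries.

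Ratios within a library do not depend on scaling between libraries, so pairs of genes were compared on the log2 scale by a two-sided exact permutation test over the libraries. With 3 libraries against 3 there are 20 arrangements and p cannot go below 0.1. The log2 ratio of *Mdga1* to *Mdga2* was 3.94, 3.09 and 3.37 in control 1 to 3 and 2.65, 2 and 2.32 in mutant 1 to 3, a mean difference of -1.14 (exact permutation p = 0.1, adjusted over 6 pairs 0.12, of which 5 are given). Relative to *Nlgn2*, which encodes neuroligin-2, *Mdga1* stood at -1.14, -1.13 and -1.2 in control 1 to 3 and at -2.4, -2.45 and -2.53 in mutant 1 to 3, a difference of -1.3 (exact permutation p = 0.1, adjusted 0.12). Both ratios involving *Mdga1* were therefore lower in every mutant library than in any control library. The ratios here and below are made from the same reads as the single-gene values above and are no separate evidence.

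Relative to *Cbln1*, the other cerebellins were higher in every mutant library. The log2 ratio to *Cbln1* differed by 1.68 for *Cbln2*, from -6.79 ± 0.21 to -5.11 ± 0.32, by 0.7 for *Cbln4*, from -5.37 ± 0.24 to -4.67 ± 0.17, and by 0.38 for *Cbln3*, from -6.07 ± 0.19 to -5.69 ± 0.21 (SD, n = 3, exact permutation p = 0.1 each, adjusted 0.12). For *Cbln3* the nearest libraries, control 3 and mutant 3, were at -5.93 and -5.92.

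**Figure D3:**
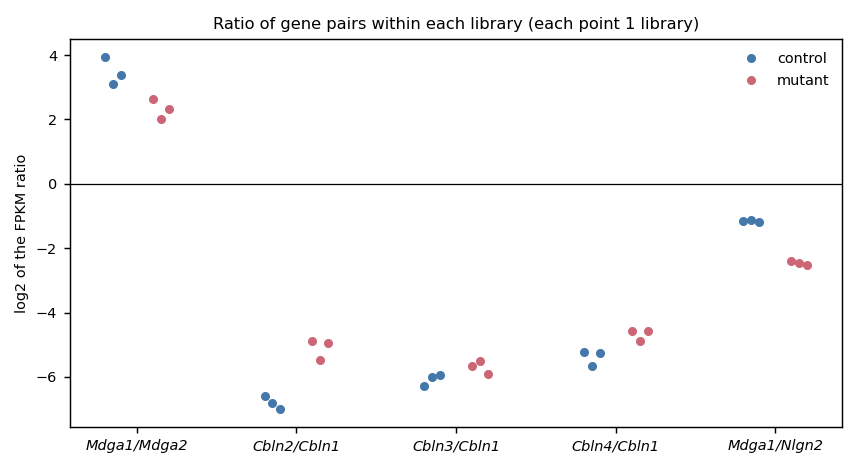
Log2 of the FPKM ratio of 5 gene pairs within each library (vertical axis), control in blue and mutant in red, with each point 1 library. The groups are separate for all 5 pairs, lower in the mutant libraries for *Mdga1* relative to *Mdga2* and *Nlgn2* and higher for *Cbln2*, *Cbln3* and *Cbln4* relative to *Cbln1*.

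The binding partners of these proteins were read from a list of 12 genes: *Nrxn2*, *Nrxn3*, 3 neuroligins, the other C1q-like ligands, the BAI receptors and a receptor scaffold gene given in the counts alone. Of these, 0 were called lower and 2 higher (*C1ql3* and *Adgrb1*) by edgeR, while 1 lower (the scaffold gene) and 4 higher passed the adjusted p alone, and 1 lower and 9 higher an unadjusted p under 0.05. DESeq2 and limma called 0 lower as well. The median log2 fold change was 0.26, beside -0.01 over all genes tested, with 11 values above zero and 1 below. *Adgrb1*, which encodes the adhesion receptor Bai1, was measured at 206, 187 and 187 CPM in control 1 to 3 and at 279, 267 and 293 CPM in mutant 1 to 3 (log2 fold change 0.53, standard error 0.06, adjusted p = 0.000149, edgeR). It stood close to the limit on fold, at 0.49 with the Y-chromosome covariate and 0.5 without mutant 3, where it was not called.

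*Adgrb3*, which encodes the C1ql1 receptor Bai3, was at 114 ± 5.55 and 125 ± 2.07 CPM (SD, n = 3) and was not called (log2 fold change 0.13, adjusted p = 0.103, edgeR). Among the neurexins, the presynaptic receptors of cerebellins, *Nrxn2* went from 430 ± 20.1 to 532 ± 18.1 CPM and *Nrxn3* from 133 ± 6.11 to 159 ± 1.19 CPM, log2 fold changes of 0.31 and 0.26 that passed on p (0.00206 and 0.00373 adjusted, edgeR) and not on fold. Among the neuroligins, the targets of MDGA proteins, *Nlgn1*, *Nlgn2* and *Nlgn3* were at 0.26, 0.21 and 0.22 on the log2 scale, with adjusted p of 0.0343, 0.0118 and 0.0535 (edgeR), and none was called. *Nlgn2* was the most abundant of them, at 349 ± 15 CPM in the control and 403 ± 10.9 CPM in the mutant libraries.

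**Figure D4:**
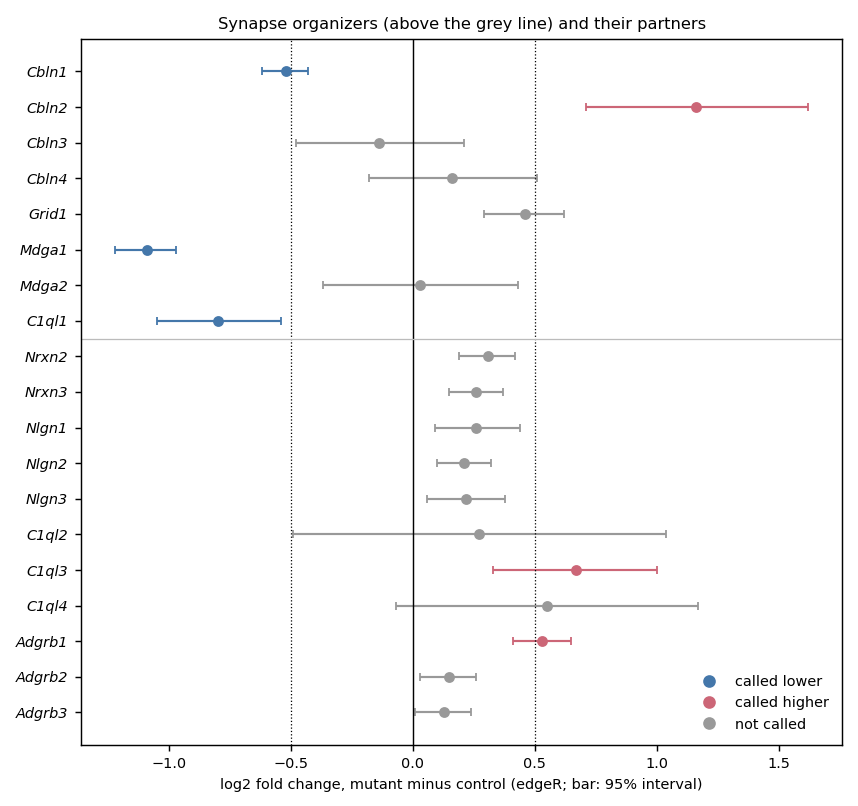
Log2 fold change, mutant minus control, with its 95% interval from edgeR (horizontal axis) for the 8 organizer genes (above the grey line) and 11 of the 12 partners (below it). Blue marks genes called lower, red genes called higher and grey genes not called, with dotted lines at the fold limit of 0.5. *Mdga1* is the lowest and *Cbln2* the highest point, and all 11 partners drawn lie above zero, while the 1 partner left out lay below it.

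Organizer genes of other families, a list of 41 genes that held the LRRTM, FLRT, latrophilin, teneurin, SLITRK, LRFN, NGL, SynCAM and calsyntenin families among others, gave 0 genes called lower and 3 called higher by edgeR, 0 lower by DESeq2 and limma, and 5 lower and 19 higher at an unadjusted p under 0.05. Their median log2 fold change was 0.15, with 29 values above zero and 12 below. *Lrrtm1*, a postsynaptic neurexin ligand, was called at 0.56 (adjusted p = 0.00048), *Flrt1*, a latrophilin ligand, at 0.51 (0.00726), and *Tenm4*, a teneurin, at 0.61 (0.000877, all edgeR). The *Lrrtm1* level was 41.3, 44.5 and 40.1 CPM in control 1 to 3 and 65.6, 60 and 60.2 CPM in mutant 1 to 3. Over all genes tested, 3.63% were called lower and 3.03% higher, so lists of this length can hold few or no such genes. The members and lists were also chosen with earlier results of these data known. None of these 41 genes or the 12 partners was called lower, where 3 of the 8 organizer members were. These counts depended on the limit on fold. With no such limit 3 members, 1 partner and 0 of these 41 genes were called lower, and a test against the limit itself (glmTreat) left 1 member lower. The difference between the counts was not tested.

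The genes whose pattern over the 6 libraries was most like that of each called member were found among 11071 other genes of at least 10 CPM, by the root mean square difference of log2 CPM relative to the control mean. For *Cbln1* they were *Ptma*, *Diras2* and *Zic5*, with differences of 0.0179, 0.0203 and 0.0225 and log2 fold changes of -0.52, -0.54 and -0.5. For *Mdga1* they were *Ppp2r2c*, *Ostf1* and *Igfbpl1*, with differences of 0.0446, 0.0524 and 0.0543. For *C1ql1* they were *Ercc6l*, *Osbp2* and *Aurkb*, with differences of 0.0576, 0.0765 and 0.0779. *Cbln2* had less close neighbours, *A2m*, *Fbln5* and *Lpar1*, with differences of 0.108, 0.131 and 0.184. These are descriptions of 6 libraries that share their group structure.

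Antisense genes cross some of the members, and whether reads were counted by strand is not given in the sources used here. *Gm2694*, a lincRNA that spans *Cbln1* on the other strand (chr8:87460469-87525554), was chosen after its values were seen. It was at 70.9 ± 3.95 and 37.5 ± 3.07 CPM (SD, n = 3), called lower at -0.92 in log2 units (adjusted p = 4.84e-05, edgeR), and shares 0 exonic bases with *Cbln1* in the GENCODE M21 annotation. *Gm16758*, inside *Mdga1* on the other strand and chosen in the same way, went from 3.39 ± 0.462 to 1.3 ± 0.297 CPM (log2 fold change -1.38, adjusted p = 0.00398, edgeR) and also shares 0 exonic bases with its partner. *Gm26668*, which spans *C1ql1* on the other strand and was chosen in the same way, was at 1.24, 1.63 and 1.54 CPM in control 1 to 3 and 0.865, 1.69 and 0.872 CPM in mutant 1 to 3. Its groups overlapped, it was not called (log2 fold change -0.37, adjusted p = 0.495, edgeR), and it shares 0 exonic bases with *C1ql1*. *Cbln2*, *Cbln3* and *Cbln4* overlap no other gene of the table.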

How the data were processed

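Poly-A RNA of 6 P1 cerebellum libraries was sequenced. The authors aligned reads to mm10 with HISAT2 2.0.5 and deposited raw counts per gene made with featureCounts 1.5.0-p3 (versions from the submitters' processing notes). The deposited FPKM values were scaled by the authors for gene length and depth. Whether counting used strand, and how reads with several alignments were treated, is not given in the sources used here.

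Counts were filtered with filterByExpr, TMM-normalized and tested in R 4.3.3 with edgeR 4.0.16 (glmQLFit, glmQLFTest), 3 mutant against 3 control libraries, with Benjamini-Hochberg adjustment over 17505 genes. CPM values are counts scaled by the TMM-normalized total. Fits were checked on simulated counts. Alternatives were DESeq2 1.42.0, other scalings and filters, a replicate block, a Y-chromosome covariate, each library left out, limma 3.58.1 on log2(FPKM + 1) and log2(FPKM + 0.1), and other limits on fold. The members and lists were chosen with earlier results of these data known. Some genes of the partner list and 1 gene pair are not reported here. The members, the other partners, the called genes of the other organizer list, the 3 most abundant genes of a marker list at most, and the 3 genes most like each called member were named, and others are marked as chosen after seeing values.

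No library was a copy of another of its group, since their counts differed beyond sampling noise (chi-square of 3.66 to 10.2 per gene).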

Additional observations from a re-analysis of the deposited data

How the results depend on the processing

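*Cbln1* (log2 fold change -0.54 to -0.51) and *Mdga1* (-1.14 to -1.03) kept their direction and call in all 16 alternative fits, and *Cbln3* (-0.23 to -0.02) and *Cbln4* (0.02 to 0.26) were called in none. *Cbln2* was not called by limma on log2(FPKM + 1) (0.74, adjusted p = 0.0123), on log2(FPKM + 0.1) (1.1, 0.0112) or on log2(FPKM + 1) with no filter (0.74, 0.0866), and leaving out 1 library gave 1.04 to 1.33. *C1ql1* was not called by limma with no filter (-0.74, adjusted p = 0.0526), and lay between -0.92 and -0.73 with 1 library left out. *Grid1* ran from 0.42 to 0.51 and *Mdga2* from -0.15 to 0.21 with 1 library left out. In these limma fits the fold of *Cbln2* stayed beyond 0.5 and its call was lost on p. The causes of these changes were not tested.

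Members called lower numbered 3, but 2 with limma and no filter. They numbered 1 with glmTreat, which tests against the fold limit itself. Members called higher numbered 1, but 0 under the 3 limma fits and under glmTreat, 0 to 1 with 1 library left out, and 2 with no limit on fold. Partners called higher numbered 2, but 1 with DESeq2, at least 10 counts in every library, the Y-chromosome covariate or limma on log2(FPKM + 1) or log2(FPKM + 0.1), 0 with limma and no filter or glmTreat, 4 with no limit on fold, and 0 to 1 with 1 library left out. Partners called lower numbered 0, 1 with no limit on fold and 0 to 1 with 1 library left out. Other organizers called higher numbered 3, but 1 under each filtered limma fit, 0 with no filter or glmTreat, 11 with no limit on fold, and 2 to 5 with 1 library left out, and those called lower 0 to 1. At an unadjusted p under 0.05, 37.1% of all genes tested passed.

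Whether the replicate numbers pair the libraries could not be told. Deviations of same-numbered libraries correlated at 0.26, 0.3 and -0.16, and those of differently numbered libraries at -0.44 to 0.28. With the replicate number as a block, *Cbln1* was at -0.53, *Cbln2* at 1.15 and *C1ql1* at -0.8, and the block changed no call of a member, but 1 of the other organizers was called lower. Over all genes, 635 were called lower and 530 higher, 397 and 285 by limma on log2(FPKM + 1), 456 and 338 on log2(FPKM + 0.1), 128 and 42 with no filter, 145 and 30 by glmTreat, and 349 to 569 higher with 1 library left out. With library size alone in place of TMM they were 595 and 590. In the mutant libraries 7 neighbours kept the FPKM order, 6 without mutant 1 and 5 without mutant 3 (range 5 to 7), while the control order held in every such fit. *Cbln2* rested on 46 to 155 reads per library.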
